A study of Mus musculus with 18 samples.

Results

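The clustered protocadherins were described in the ventral granule cell layer of adult male mice of the Swiss Webster stock, in 6 RNA-Seq libraries: 2 each of WT, F1 and F2. Members were all gene symbols of the count files that begin with Pcdha, Pcdhb, Pcdhga, Pcdhgb or Pcdhgc followed by a cluster number, which gave 25 of 34620 symbols. These were 2 genes of the alpha cluster, 22 of the beta cluster and 1 of the gamma cluster. F1 males were genetically WT offspring of mothers heterozygous (H) for the serotonin 1A receptor, 5-HT1A. F2 males came from F1 females mated to WT males. Males of the WT group came from a WT lineage bred in parallel, so no group carried the mutated receptor allele. This stock is outbred, and how many animals were pooled in a library is not given in the sources used here, so p-values measure the spread between these libraries and the part of it that is technical is not known. The granule cell layer was microdissected from frozen sections and is not pure: granule cell markers were high in every library (summed level of 6 markers 722 to 1035 CPM, reads scaled to library size after TMM normalization), and the levels of other cell types are given beside the results they move with.

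Clustered protocadherins are cell adhesion molecules of the cadherin superfamily that sit on neuronal surfaces and bind identical copies on a facing membrane. Each neuron uses its own set of them, chosen from tandem arrays of alternative promoters, and the resulting surface identity is known for the self-avoidance of dendrites and the spacing of axons. Alpha and gamma isoforms each join 1 variable exon, which encodes the extracellular part, to constant exons shared by the whole cluster, whereas every beta gene is a complete gene made of a single main exon. Promoter choice depends on DNA methylation and on CTCF and cohesin, which bring promoters and distant enhancers together.

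How these genes are annotated sets what each value counts. RefSeq names 58 genes in the mouse clusters (14 alpha, 22 beta and 22 gamma), and the files hold all the beta genes but only Pcdha3, Pcdha5 and Pcdhga8 of the rest. In GENCODE M1, an annotation of the mm9 genome that the reads were aligned to, a single alpha gene model on the plus strand of chr18:37089939-37347311 joins 9 variable first exons to the shared exons. A single gamma model at chr18:37833989-38001527 does the same with 9 variable first exons. These models have other symbols there (Pcdha11 and Pcdhgc5), and neither symbol is in the files, while Pcdha5 and Pcdhga8 are not in GENCODE M1. The rows Pcdha5 and Pcdhga8 may therefore hold whole clusters with their shared exons. The annotation release behind the counts is not given in the sources used here, and these rows are read as alpha and gamma counts, not as single isoforms. Pcdha3 has a gene model of its own at chr18:37105801-37108685, with 15.2% of its 50-base windows repeated on the chromosome. The C-type isoforms Pcdhac1, Pcdhac2, Pcdhgc3, Pcdhgc4 and Pcdhgc5 had no row of their own and thus no value here. Beta genes lie in a row on the plus strand from chr18:37424652 to 37681073, share no exon bases with other gene models, and have between 0% and 12% of their 50-base windows repeated elsewhere on the chromosome. A read that falls wholly in a repeated window aligns to more than 1 place and was not counted. Pcdhb20 is annotated as a pseudogene in this release.

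Most counts of the family came from the rows Pcdhga8 and Pcdha5, and the beta genes took between 15.2% and 19.2% of them in a library. Pcdhga8 stood at 477 and 496 CPM in the WT libraries, 563 and 550 CPM in F1, and 615 and 606 CPM in F2. Every F1 library thus lay above both WT libraries, and every F2 library above both F1 libraries. Pcdha5 stood at 117 and 126 CPM in WT, 147 and 176 CPM in F1, and 149 and 140 CPM in F2, with both F1 and both F2 libraries above WT and with overlap between F1 and F2. The row Pcdha3, whose model in GENCODE M1 holds none of the shared alpha exons, was scarce. It had 0.971 and 0.739 CPM in WT, 0.759 and 1.75 CPM in F1, and 1.68 and 1.26 CPM in F2. The F1 libraries of Pcdha3 lay further apart than those of any other tested member, by 1.19 on the log2 scale. The 22 beta genes together gave 136 and 148 CPM in WT, 127 and 135 CPM in F1, and 164 and 159 CPM in F2. The F2 libraries were thus the highest and the F1 libraries the lowest for the beta cluster as a whole.

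**Figure D1:**
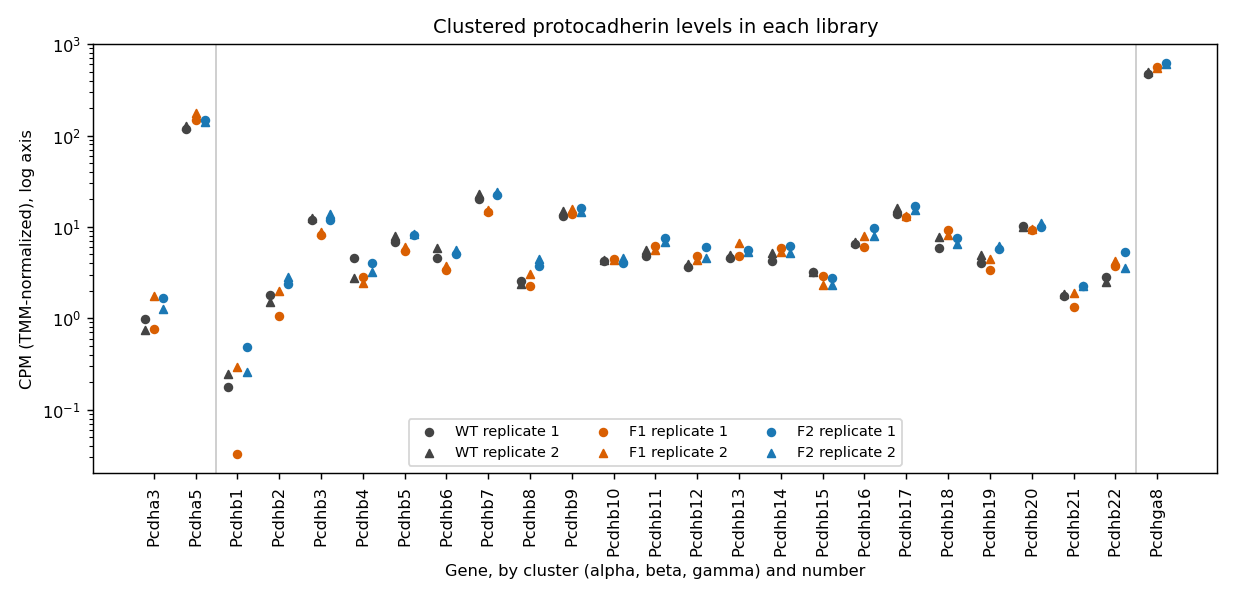
Level of each clustered protocadherin in each library, in CPM on a log axis, with genes by cluster and number and 1 point per library (circles, replicate 1; triangles, replicate 2; grey lines part the alpha, beta and gamma clusters). Pcdhga8 (477 to 615 CPM) and Pcdha5 (117 to 176 CPM) lie far above the beta genes, of which Pcdhb7 is the highest.

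Per kilobase of exon, the beta genes differed widely in level, and the order was led by a few of them. Pcdhb7 was the highest of the 23 members with a gene model, with a mean of 5.67 CPM per kb and a range of 4.13 to 6.85 over the 6 libraries. Pcdhb9 (4.82 CPM per kb) and Pcdhb17 (4.50 CPM per kb) followed, and then Pcdhb3 (2.96), Pcdhb20 (2.84) and Pcdhb5 (2.03). The genes from Pcdhb11 to Pcdhb8 in this order lay close together, between 1.69 and 1.31 CPM per kb. At the low end were Pcdhb19 (0.669 CPM per kb), Pcdha3 (0.489) and Pcdhb21 (0.403). The order depends on annotated exon length, which ran from 2350 bases for Pcdhb8 to 7131 bases for Pcdhb19. These lengths are those of GENCODE M1, which lacks the symbols Pcdha5 and Pcdhga8 of the count files. They were not reduced for repeated windows, whose reads were not counted. Before division by length Pcdhb19 had a mean of 4.77 CPM, above the 4.33 CPM of Pcdhb10. Pcdhb1, the first beta gene, had between 1 and 13 reads per library and was the only member not tested. The spread between replicates of the tested members was close to that of other genes. The median absolute log2 ratio of replicate 1 to replicate 2 was 0.16 for WT, 0.18 for F1 and 0.16 for F2, against 0.16, 0.18 and 0.15 over all tested genes.

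The comparison of F1 with WT asked what the offspring of H mothers carry into adulthood. Of the 24 tested members, 1 was higher and 1 lower in F1, the alpha row Pcdha5 and the beta gene Pcdhb7 (edgeR's exact test, q under 0.01 with Benjamini-Hochberg adjustment over all 17421 tested genes). These 2 members are 8.33% of those tested, against 12.3% of all genes, a share below that background. At an unadjusted p under 0.05, 5 members passed (20.8%, against 32.6% of all genes), and at q under 0.05, 3 did (12.5%, against 20.8%). Pcdha5 was 1.33-fold higher in F1 than in WT (log2 fold change 0.41, SE 0.13, edgeR adjusted p = 0.00964). Pcdhb7 stood at 20.3 and 22.8 CPM in WT and at 14.5 and 15.3 CPM in F1, with no overlap. This is a level of 0.692 times that of WT (log2 fold change -0.53, SE 0.15, edgeR adjusted p = 0.00536).

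Both calls lay close to the threshold. That of Pcdhb7 was lost on leaving out any 1 of the 6 libraries (edgeR adjusted p between 0.0138 and 0.12) and in edgeR's quasi-likelihood test (adjusted p = 0.0172). That of Pcdha5 was lost in the quasi-likelihood test (edgeR adjusted p = 0.026) and on leaving out any library other than replicate 1 of F1, for example to an adjusted p of 0.194 without replicate 2 of F1.

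On one side of Pcdhb7, the genes from Pcdhb3 to Pcdhb6 also had negative log2 fold changes in F1, none of which passed the test. On the other side Pcdhb8 was at 0.09, with overlap between F1 and WT, and Pcdhb2, before Pcdhb3, was at -0.13. Pcdhb3 had 11.8 and 12.5 CPM in WT against 8.25 and 8.87 CPM in F1 (log2 fold change -0.51, SE 0.18, edgeR adjusted p = 0.0271). Pcdhb6 had 4.59 and 5.95 CPM in WT against 3.40 and 3.72 CPM in F1 (log2 fold change -0.56, SE 0.23, edgeR adjusted p = 0.0702). In both genes the WT and F1 libraries did not overlap. Pcdhb5 was at -0.37 (SE 0.20), with 6.91 and 7.99 CPM in WT against 5.51 and 6.02 CPM in F1 and again no overlap. Pcdhb4 was at -0.47 (SE 0.29), and its WT libraries lay 0.72 apart on the log2 scale, so that F1 and WT overlapped. Past this stretch values lay on both sides of 0. Pcdhb22, the last beta gene, had the most positive log2 fold change (0.57, SE 0.27, edgeR adjusted p = 0.114), with 2.82 and 2.50 CPM in WT against 3.70 and 4.24 CPM in F1. Pcdhb18 was at 0.36 and Pcdhb15 at -0.28. The gamma row Pcdhga8 was at 0.19 (SE 0.11, edgeR adjusted p = 0.217), with an approximate 95% interval of -0.02 to 0.41.

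Over all 24 tested members the log2 fold changes in F1 ran from -0.56 to 0.57 with a median of 0.05, against 0.01 for all genes, and 13 were above 0 (54.2%, against 50.9% of all genes). Both F1 libraries lay above both WT libraries in 7 members (29.2%, against 29.8% of all genes) and below them in 7 (29.2%, against 30.6%). These shares were close to those of all genes.

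**Figure D2:**
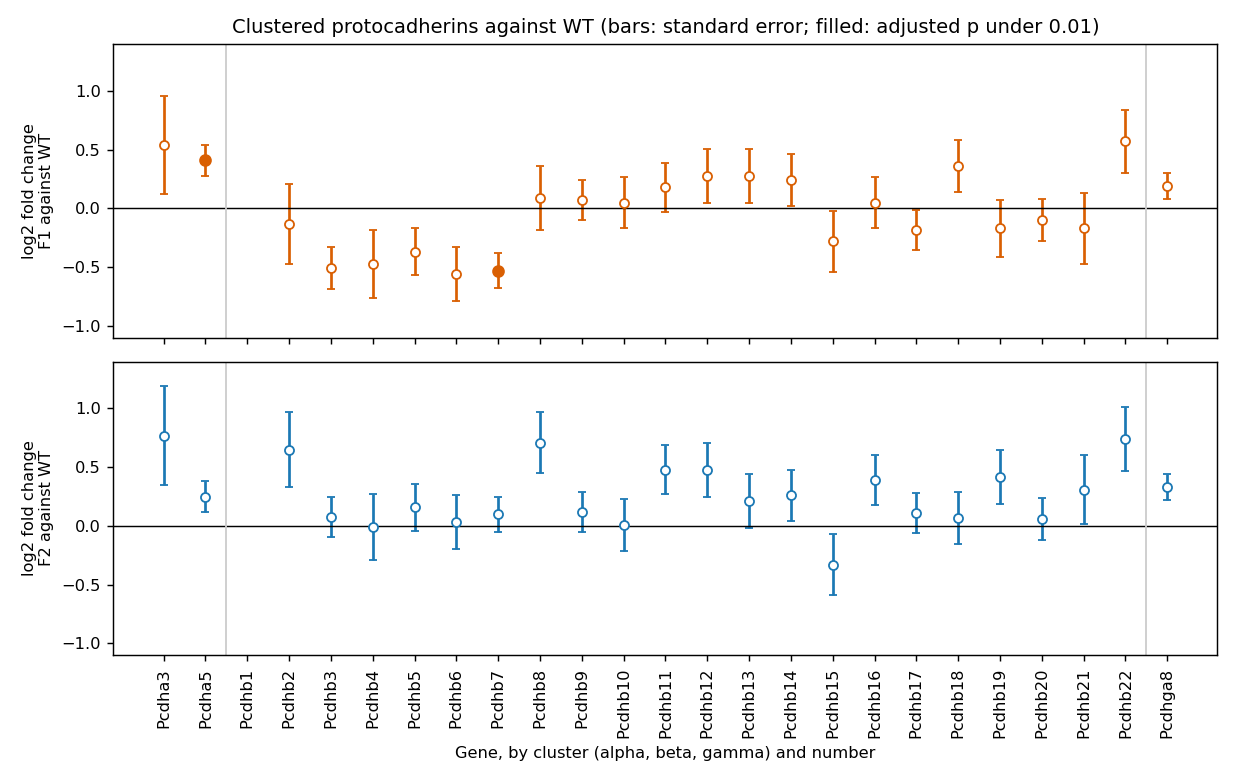
Log2 fold change of each clustered protocadherin in F1 (top) and F2 (bottom) against the same 2 WT libraries, with genes by cluster and number (bars, standard error; filled points, adjusted p under 0.01 in edgeR's exact test; Pcdhb1 was not tested). In F1 Pcdha5 (0.41) and Pcdhb7 (-0.53) are filled, and no point is filled in F2, where all but Pcdhb4 and Pcdhb15 lie above 0.

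In F2, which measured the same genes a generation further on, no member differed from WT at q under 0.01 in edgeR's exact test, against 12% of all genes. At an unadjusted p under 0.05, 7 of 24 members passed (29.2%, against 32.4% of all genes), and at q under 0.05, 3 did (12.5%, against 20.7%). DESeq2 called 1 member, and edgeR's quasi-likelihood test called 0. The nearest to the threshold was Pcdhga8, at 1.25 times the WT level (log2 fold change 0.33, SE 0.11, edgeR adjusted p = 0.0214), which was the member called by DESeq2 (adjusted p = 0.00723). Its approximate 95% interval was 0.11 to 0.54. Pcdhb8 had 2.59 and 2.39 CPM in WT against 3.78 and 4.42 CPM in F2 (log2 fold change 0.71, SE 0.26, edgeR adjusted p = 0.0314), and Pcdhb22 had 5.38 and 3.53 CPM in F2 (log2 fold change 0.74, SE 0.27, edgeR adjusted p = 0.0332). In each of these 3 members both F2 libraries lay above both WT libraries, while none of them passed the threshold. The most positive value was that of the low-level row Pcdha3 (0.77, SE 0.42, edgeR adjusted p = 0.189).

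The values in F2 leaned to one side without passing the test gene by gene. Of the 24 tested members 22 had a log2 fold change above 0 (91.7%, against 50% of all genes), with a median of 0.23 against 0.00. Both F2 libraries lay above both WT libraries in 13 members (54.2%, against 31.0% of all genes) and below them in 1 (4.17%, against 32.0%). That one was Pcdhb15, with 3.18 and 3.20 CPM in WT against 2.73 and 2.34 CPM in F2 (log2 fold change -0.33, SE 0.26). Pcdhb4, the other member below 0, was at -0.01. These counts are a description: the members lie in 1 locus and were measured in the same 4 libraries, so they are not independent of each other. Pcdhb7, lower in F1, was at 22.3 and 24.0 CPM in F2 and overlapped WT (log2 fold change 0.10, approximate 95% interval -0.19 to 0.40).

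Cell types that sit beside granule cells also differed between these libraries. The summed level of 10 oligodendrocyte markers was 1147 and 2075 CPM in WT, 3125 and 2344 CPM in F1, and 1617 and 3035 CPM in F2, with 4 of 10 called higher in F1 and 2 in F2, where 3.77% and 3.86% of all genes were called higher. That of 6 astrocyte markers was 857 and 959 CPM in WT, 1033 and 1360 CPM in F1, and 1478 and 1176 CPM in F2, with 1 and 4 of 6 called higher. Markers of microglia had 108 and 110 CPM in WT, 128 and 149 CPM in F1, and 165 and 143 CPM in F2, with 0 and 4 of 6 called higher. The 6 markers of pyramidal and mossy cells summed to 298 and 265 CPM in WT, 317 and 154 CPM in F1, and 142 and 164 CPM in F2. The 7 interneuron markers had 635 and 703 CPM in WT, 853 and 616 CPM in F1, and 709 and 791 CPM in F2. Oligodendrocyte precursor markers had 50.7 and 57.7 CPM in WT, 81.3 and 89.9 CPM in F1, and 79.7 and 83.5 CPM in F2. Endothelial and pericyte markers had 130 and 148 CPM in WT, 156 and 181 CPM in F1, and 180 and 173 CPM in F2. Of the 6 granule cell markers none was called by edgeR's exact test in F1 or F2, while 2 and 5 had an unadjusted p under 0.05; the sum was 816 and 834 CPM in WT, 722 and 903 CPM in F1, and 1035 and 983 CPM in F2. The sums of astrocytes, microglia, oligodendrocyte precursors, and endothelial cells and pericytes were thus above both WT libraries in all F1 and F2 libraries. The oligodendrocyte sum overlapped between F2 and WT, and the granule cell sum was above all other libraries in both F2 libraries. The pyramidal and mossy cell sum was below both WT libraries in F2, and its F1 libraries lay on either side of WT. Most of this sum was 1 gene, Cpne7, with 249 and 213 CPM in WT and 80.5 and 109 CPM in F2. Of the 6 markers, 4 had a positive log2 fold change in F2 and 2 a negative one, so the sum does not describe the list. In bulk tissue fewer cells of a type and less RNA per cell cannot be told apart, and the part of cell composition in the protocadherin values was not tested.

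F1 and F2 share the same WT libraries, so a direct comparison of F2 with F1 was made to see whether the generations differed. It called 129 of 17421 genes (0.74%), and 1 of the 24 members (4.17%, against 0.304% of all genes called higher in F2 than in F1). This was Pcdhb7, higher in F2 than in F1, 22.3 and 24.0 CPM against 14.5 and 15.3 CPM. The F2 level was 1.55 times that of F1 (log2 fold change 0.63, SE 0.15, edgeR adjusted p = 0.00627). The call was kept without replicate 1 of WT and lost on leaving out any other library (edgeR adjusted p between 0.0101 and 0.193), and it was lost in the quasi-likelihood test (adjusted p = 0.0827), which called 2 genes in all. At an unadjusted p under 0.05, 7 members passed (29.2%, against 8.64% of all genes), each with a positive log2 fold change, and at q under 0.05 Pcdhb7 was still the 1 member called (4.17%, against 1.32% of all genes).

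**Figure D3:**
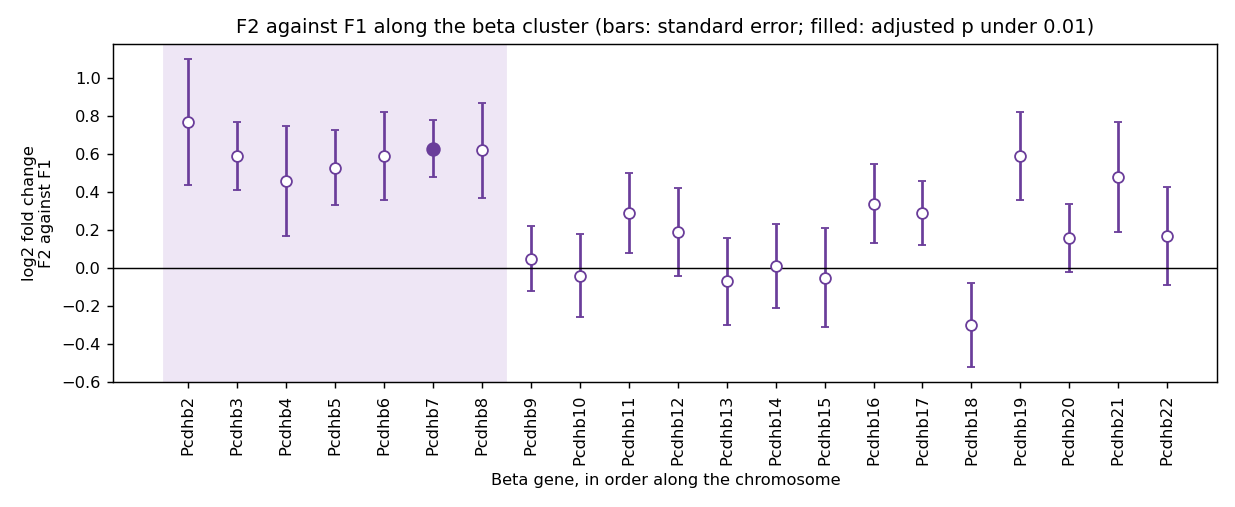
Log2 fold change of F2 against F1 for the 21 tested beta genes in their order along the chromosome (bars, standard error; filled point, adjusted p under 0.01 in edgeR's exact test; shading, Pcdhb2 to Pcdhb8). The 7 shaded genes lie between 0.46 and 0.77, and of the other 14 genes 10 lie above 0.

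Pcdhb7 lies in a run of neighbouring beta genes with like values. From Pcdhb2 to Pcdhb8, all 7 genes had log2 fold changes of F2 against F1 between 0.46 and 0.77 with a median of 0.59, and 6 of the 7 had an unadjusted p under 0.05. In each of them both F2 libraries lay above both F1 libraries. The other 14 tested beta genes ran from -0.30 to 0.59 with a median of 0.16, and 1 of them, Pcdhb19 (0.59), had an unadjusted p under 0.05. The run was singled out after its values were seen and no test was made of it. It was Pcdhb2 that had the largest value (0.77, SE 0.33, edgeR adjusted p = 0.406), with 1.06 and 2.01 CPM in F1 against 2.39 and 2.86 CPM in F2. Pcdhb3 had the value closest to the threshold after Pcdhb7 (0.59, SE 0.18, edgeR adjusted p = 0.0716). Against WT the same 7 genes had a median log2 fold change of -0.47 in F1, from -0.56 to 0.09, and of 0.10 in F2, from -0.01 to 0.71. For the other 14 the medians were 0.06 and 0.23.

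The reads of the run can also be set against those of the whole beta cluster, a share that does not depend on how libraries are scaled to each other. Pcdhb2 to Pcdhb8 took 38.8% of the beta reads in replicate 1 of WT (exact 95% binomial interval 37.4% to 40.2%) and 37.7% in replicate 2 (36.3% to 39.2%). In F1 the share was 29.8% (28.4% to 31.3%) and 30.6% (29.2% to 32.0%). In F2 it was 35.2% (33.8% to 36.7%) and 39.2% (37.7% to 40.7%). The F1 libraries were thus the lowest of the 6, with intervals apart from the rest, while the F2 libraries lay on either side of WT. The run was chosen from values of F2 against F1 in these same libraries. Its low share in F1 follows in part from that choice and is no further support. The intervals cover counting error only and not the spread between animals. Pcdhb7 alone took 15% and 15.4% of the beta reads in WT, 11.4% and 11.3% in F1, and 13.6% and 15.1% in F2.

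**Figure D4:**
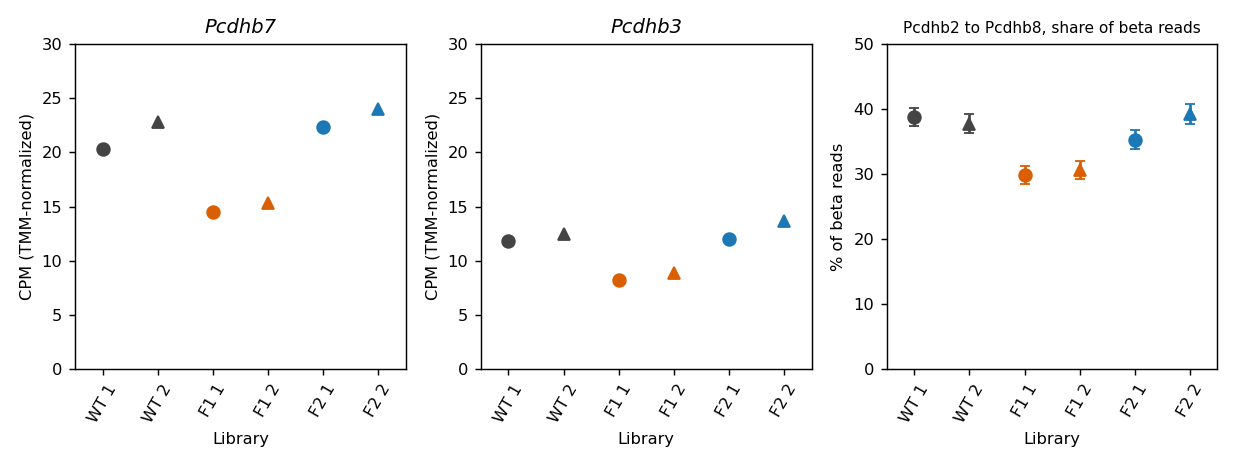
Levels of Pcdhb7 and Pcdhb3 in CPM and the share of all beta reads taken by Pcdhb2 to Pcdhb8 in percent, 1 point per library (circles, replicate 1; triangles, replicate 2; bars in the right panel, exact 95% binomial interval). Both F1 libraries are the lowest in each panel, with 14.5 and 15.3 CPM for Pcdhb7, 8.25 and 8.87 CPM for Pcdhb3 and shares of 29.8% and 30.6%. These genes were chosen after their values in the same libraries were seen.

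Outside this run, Pcdhb17 and Pcdhb20 also had both F1 libraries below all 4 libraries of WT and F2. With Pcdhb3, Pcdhb5, Pcdhb6 and Pcdhb7 of the run, this held for 6 of 24 members (25.0%, against 8.84% of all genes). Most of these 6 lie in the run, which was chosen from values in the same libraries. The share is thus no support for low values in F1 outside it. Pcdhb17, the third beta gene by level, had 13.7 and 16.1 CPM in WT, 13.0 and 13.2 CPM in F1, and 16.8 and 15.4 CPM in F2, and the gap between F1 and WT was small next to the spread (log2 fold change -0.18, SE 0.17). Pcdhb9, the second by level, was nearly level across the groups, from 13.3 to 16.1 CPM. The 1 member with both F1 libraries above the other 4 (4.17%, against 9.60%) was Pcdhb18, with 5.82 and 7.71 CPM in WT, 9.24 and 8.10 CPM in F1, and 7.63 and 6.50 CPM in F2. It had the most negative value of F2 against F1 (-0.30, SE 0.22, edgeR adjusted p = 0.842), followed by Pcdha5 (-0.16, edgeR adjusted p = 0.874). Over all members both F2 libraries lay above both F1 libraries in 14 of 24 (58.3%, against 19.4% of all genes) and below them in 1 (4.17%, against 19.7%), and 19 members had a log2 fold change above 0 (79.2%, against 49.8%).

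Genes that act on the clusters were then examined as a list of 18: CTCF, cohesin and its loaders and releasing factors, and silencing and DNA methylation enzymes. In F1 4 of 18 were called lower and none higher, with 8.54% of all genes called lower, and in F2 2 of 18 were called lower and none higher, with 8.10% of all genes. Setdb1, a histone H3K9 methyltransferase that represses transcription, stood at 87.1 and 71.3 CPM in WT, 49.7 and 49.1 CPM in F1, and 49.4 and 48.6 CPM in F2. It fell by 0.68 in F1 and by 0.69 in F2 on the log2 scale (edgeR adjusted p = 4.54e-06 in F1), with all F1 and F2 libraries below WT. Mau2, which loads cohesin together with Nipbl, stood at 197 and 158 CPM in WT, 116 and 124 CPM in F1, and 117 and 118 CPM in F2, and fell by 0.56 in F1 (edgeR adjusted p = 0.000263) and by 0.60 in F2 (edgeR adjusted p = 0.000106). Its partner Nipbl was at 0.00 and 0.03 and was not called. Both calls of Setdb1 held on leaving out any library, with edgeR adjusted p of up to 0.0054 in F1. Those of Mau2 were lost without replicate 1 of WT or replicate 1 of F1 in F1 (edgeR adjusted p of up to 0.0493), and without replicate 1 of WT or either F2 replicate in F2 (up to 0.0353).

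The cohesin subunit Stag1 (-0.40, edgeR adjusted p = 0.00473) and the de novo DNA methyltransferase Dnmt3a (-0.43, edgeR adjusted p = 0.00239) fell in F1. In F2 they were at -0.23 (edgeR adjusted p = 0.142) and -0.33 (edgeR adjusted p = 0.028), and F2 did not differ from F1 for any of the 18 at q under 0.01 in edgeR's exact test, with 1 at an unadjusted p under 0.05. Dnmt3b, which methylates protocadherin promoters in the early embryo, was scarce, with 1.65 and 1.65 CPM in WT and 0.792 and 1.07 CPM in F1 (log2 fold change -0.82, SE 0.33, edgeR adjusted p = 0.0534). Ctcf (0.06 in F1 and 0.13 in F2), the cohesin subunit Rad21 (0.11 and 0.26) and the silencing factor Smchd1 (-0.05 and -0.03) were not called, with edgeR adjusted p of at least 0.087. The call of Stag1 in F1 was lost on leaving out any library (edgeR adjusted p between 0.0142 and 0.0542), and that of Dnmt3a without replicate 1 of WT or either F1 replicate (up to 0.0655). Both were lost in the quasi-likelihood test of edgeR (adjusted p = 0.0151 and 0.0126).

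**Figure D5:**
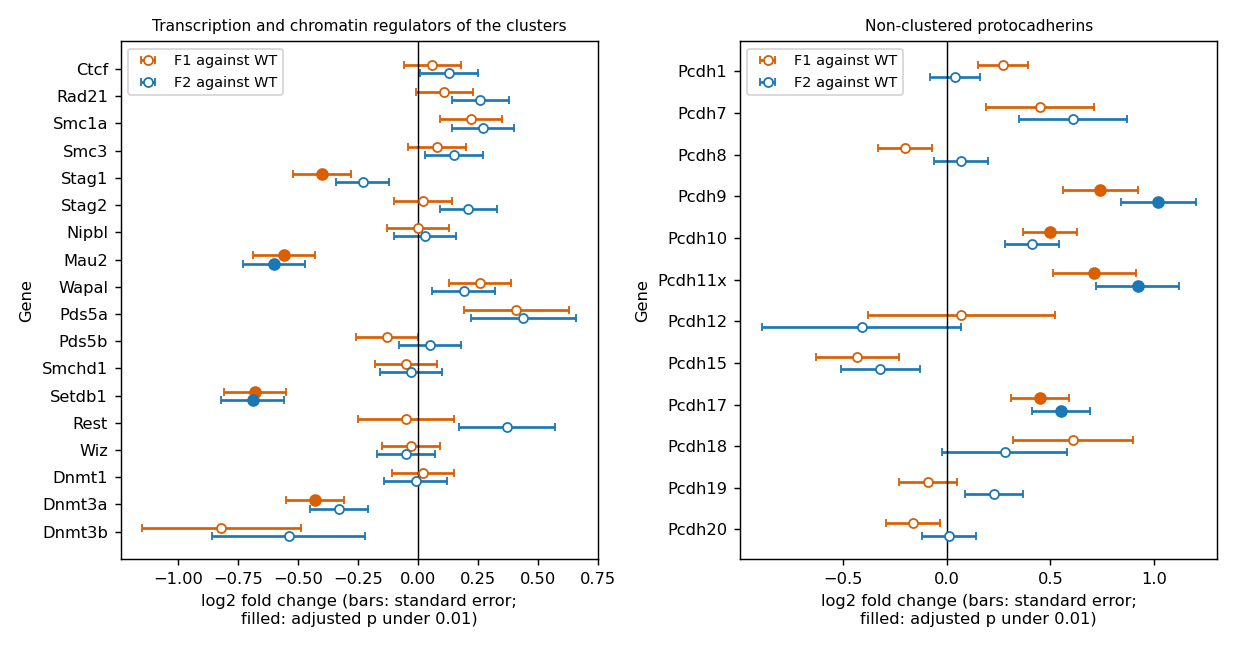
Log2 fold change in F1 and F2 against WT of genes that regulate the clusters (left) and of protocadherins outside the clusters (right), 1 row per gene (bars, standard error; filled points, adjusted p under 0.01 in edgeR's exact test). Setdb1 and Mau2 lie left of 0 in both generations, and Pcdh9, Pcdh11x and Pcdh17 right of 0.

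Protocadherins outside the clusters are single genes with adhesion roles of their own. Of 12 tested, 4 were called higher in F1 (3.77% of all genes were) and 3 in F2 (3.86% of all genes), and none was called lower. Pcdh9 stood at 19.6 and 25.9 CPM in WT, 31.2 and 44.8 CPM in F1, and 44.0 and 48.0 CPM in F2, and rose by 0.74 in F1 (edgeR adjusted p = 0.00082) and by 1.02 in F2. Pcdh11x stood at 4.88 and 5.35 CPM in WT, 8.65 and 8.13 CPM in F1, and 10.1 and 9.32 CPM in F2, and rose by 0.71 and 0.92 on the log2 scale. In both genes the F1 and F2 libraries all lay above WT. Pcdh17 rose by 0.45 in F1 (edgeR adjusted p = 0.00881) and by 0.55 in F2 (edgeR adjusted p = 0.000859). Pcdh10 rose in F1 (0.50, edgeR adjusted p = 0.00189) and was at 0.41 in F2 (edgeR adjusted p = 0.014). On leaving out 1 library at a time the call of Pcdh9 in F2 held throughout, while each other call among these 4 genes was lost without replicate 1 of WT or other libraries, with edgeR adjusted p of up to 0.0182 for Pcdh11x and 0.108 for Pcdh17 in F2, and up to 0.0866 for Pcdh9, 0.0962 for Pcdh10, 0.0872 for Pcdh11x and 0.176 for Pcdh17 in F1. In the quasi-likelihood test the calls of Pcdh9 and Pcdh11x in F2 were kept and those of all 4 genes in F1 and of Pcdh17 in F2 were lost. The glial markers given above moved in the same libraries, and their part in these values was not tested.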

How the data were processed

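Members and gene lists were chosen with earlier results of these data known. The authors aligned single-end 50-base reads to mm9 with TopHat and deposited raw HTSeq counts per gene (intersection-strict mode, reads of more than 1 position dropped). The kit does not mark strand. Reads on genes numbered 26358165 to 33727936 per library, and 1.33% to 1.53% of reads were ambiguous. Reads assigned to no gene were 17.7% and 20.7% in WT, 13.8% and 12.2% in F1, and 13.9% and 17.4% in F2. Both WT libraries thus lay above all F1 and F2 libraries, and the part of this in the comparisons with WT was not tested. Counts were filtered with filterByExpr, which left 17421 genes, normalized by TMM and compared by the exact test of edgeR 4.0.16 (R 4.3.3) with tagwise dispersion over all 3 groups. The common dispersion was 0.0113. The threshold was q under 0.01 and standard errors follow from the tagwise dispersion. Genes named were members called or extreme in a comparison, the most abundant of each cluster, C-type isoforms and called genes of the lists; Pcdhb3, Pcdhb5, Pcdhb8, Pcdhb19, Pcdhb20 and other members were added after their values were seen. Gene models came from GENCODE M1 (33294 symbols matched) and names from RefSeq. Alternatives were the quasi-likelihood test of edgeR, its likelihood-ratio test with a replicate block, the same block in the former, DESeq2 1.42.0, other scalings and filters, dispersion from the 2 groups compared, q under 0.05 and each library left out. A block with crossed F2 numbers was added after seeing the data. The 12 bisulfite samples were not analysed here.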

Additional observations from a re-analysis of the deposited data

Results flagged for a closer look

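Pcdhb7 was the 1 named member for which the difference between the generations, tested directly, passed the threshold. Its log2 fold change of F2 against F1 was 0.63 (SE 0.15, edgeR adjusted p = 0.00627), with both F2 libraries above both F1 libraries. This call was fragile: it was lost in the quasi-likelihood test and on leaving out any library other than replicate 1 of WT. Against the shared WT libraries it was at -0.53 in F1 and at 0.10 in F2. No cause was tested.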

How the results depend on the processing

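With 2 libraries per group the calls among the members were fragile. Of 609 values of 12 named members under the alternatives, 550 kept direction and side of the threshold and 23 changed sign. This overstates how stable they were, since many of the values could hardly differ. The alternative of q under 0.05 reuses the main log2 fold changes, and the quasi-likelihood test without a block gave nearly the same ones. Most of these results were also not called in the main test, so keeping that side was easy. In edgeR's quasi-likelihood test the members called were 0 in each comparison, and all genes called were 1029 in F1, 997 in F2 and 2 in F2 against F1. Members called in F1 were also 0 without a filter on low counts and with dispersion from the 2 groups compared, and 1 with library totals or a mean of at least 50 counts. In F2 against F1 they were 0 without the filter and with that dispersion. DESeq2 called 1 member in F2. At q under 0.05 the members called in F2 were 3, and all genes called were 3623, 3606 and 230. Leaving out 1 library at a time gave 0 to 1 members in F1 and 0 to 1 in F2 against F1, and 988 to 2043, 703 to 2585 and 52 to 223 genes in all in F1, F2 and F2 against F1. The median log2 fold change of the members then lay between -0.12 and 0.17 for F1 and between 0.18 and 0.31 for F2.

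Replicate numbers did not pair the libraries: deviations of same-numbered libraries correlated at -0.00862 (WT and F1), -0.0898 (WT and F2) and -0.23 (F1 and F2). With the number as a replicate block, members called were 0 in each comparison in the quasi-likelihood and likelihood-ratio tests, and all genes called were 848, 758 and 9 in the former. With the F2 numbers swapped, a block added after the data were seen, the likelihood-ratio test called 2, 0 and 1 members, and 233 genes in F2 against F1. Pcdhb4 in F2 was at 0.02 with each replicate block and 0.01 without the filter.

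Other changes of sign came with 1 library left out. In F1 Pcdha3 then ran from -0.17 to 1.03, Pcdhb2 from -0.66 to 0.27 and Pcdhb9 from -0.01 to 0.17. In F2 Pcdhb4 ran from -0.31 to 0.41, Pcdhb6 from -0.14 to 0.23 and Pcdhb18 from -0.12 to 0.29. In F2 against F1 Pcdha3 ran from -0.25 to 0.95, Pcdhb9 from -0.03 to 0.15, Pcdhb15 from -0.21 to 0.14 and Pcdhb22 from -0.17 to 0.44. The causes were not tested. Depth limits the low members: Pcdhb1 had at most 13 reads per library, and standard errors of the members reached 0.42.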

Other observations

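The protein partners of the clustered protocadherins were a list of 20 genes: the kinases Ptk2 and Ptk2b, the proteases that shed and cleave the proteins, and the WAVE complex that the cytoplasmic tails recruit. In F1 1 of 20 was called higher, Cyfip2, a WAVE complex subunit (574 and 527 CPM in WT, 698 and 796 CPM in F1, log2 fold change 0.44, edgeR adjusted p = 0.00286). In F2 1 of 20 was called higher, Wasf3, the WAVE3 protein (72.1 and 76.5 CPM in WT, 109 and 104 CPM in F2, log2 fold change 0.52, edgeR adjusted p = 0.00116). The share of all genes called higher was 3.77% in F1 and 3.86% in F2. None of the 20 was called lower, and none differed between F2 and F1 at q under 0.01 in edgeR's exact test, with 2 at an unadjusted p under 0.05. Both calls were lost without replicate 1 of WT and in the quasi-likelihood test, that of Cyfip2 also without replicate 2 of WT or of F1 and that of Wasf3 also without either F2 replicate (edgeR adjusted p of up to 0.0784 and 0.0506).

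Of 12 tested genes around the clusters, Hars2, the mitochondrial histidyl-tRNA synthetase, was lower in F1 (-0.75, edgeR adjusted p = 2.04e-06) and F2 (-0.76), with 43.9 and 38.9 CPM in WT against 24.2 to 24.9 CPM in the other 4 libraries. Its head-to-head partner Hars, the cytoplasmic synthetase, was higher in F1 (0.37, edgeR adjusted p = 0.00961) and at 0.25 in F2. The 2 genes overlap in GENCODE M1 and the kit does not mark strand, so that reads from the overlap cannot be told apart. Where strand is not used in counting, a read wholly in exons of both genes is ambiguous and enters neither row. The calls of Hars2 held on leaving out any library, and that of Hars was lost on leaving out any (edgeR adjusted p between 0.0203 and 0.0827). Taf7, a general transcription factor subunit between the beta and gamma clusters, was at -0.15 and -0.17 and was not called. Within the gamma cluster the antisense lincRNA Gm16882 was higher in F2 (0.76, edgeR adjusted p = 0.00867) and at 0.57 in F1, and the call was lost without either WT or either F2 replicate (edgeR adjusted p of up to 0.2). It shares 1647 exon bases with the gamma gene model, and without strand a read wholly in those bases would likewise enter neither row. The alpha gene model has the same limit, as it shares 2790 exon bases with Gm10545 on the other strand. Gm10545 was scarce and was not called in F1 or F2.

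Among the cell type markers, the genes called by edgeR's exact test in F1 were Mag, Cnp, Cldn11 and Mal of oligodendrocytes (log2 fold changes 0.85, 0.88, 1.24 and 1.05), Pdgfra and Gpr17 of their precursors (0.69 and 0.82), Aldh1l1 of astrocytes (0.49) and Slc32a1 of interneurons (0.65), all higher, and Csf2rb2 of the pyramidal and mossy cell list (-1.86). In F2 they were Cnp and Cldn11 (0.82 and 1.00), Pdgfra (0.88), Gfap, Aldh1l1, Gja1 and S100b of astrocytes (0.75, 0.56, 0.53 and 0.42), Cx3cr1, Csf1r, C1qa and Tmem119 of microglia (0.49, 0.55, 0.52 and 0.62), the endothelial gene Pecam1 (0.97), Gad2 and Slc32a1 (0.56 and 0.61) and Pou3f1 (0.98), all higher, and Cpne7 and Csf2rb2 (-1.28 and -2.02), both lower. No gene was called among the 6 markers of immature granule cells in F1 or F2, with 1 in F1 and 0 in F2 at an unadjusted p under 0.05, and choroid plexus markers were near 0, summing to 3.49 to 4.99 CPM.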
